A study of Mus musculus with 18 samples.

Results

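The 51 genes described here are the semaphorins (20 genes), plexins (9), neuropilins (2), Eph receptors (12) and ephrins (8) among the 18909 genes of the table. The rule that picks them uses the gene symbol and no measured value. Their RNA was measured in 18 libraries of cultured mouse tumour cells, 3 in each of 6 groups. The groups were E0771 mammary tumour cells with MRTFA, with MRTFB or as control, and B16F10 melanoma cells with MRTFA, with MRTFB or as control, all with a pRetrox retroviral vector. Both lines are of the C57BL6 strain, and every group, controls included, received doxycycline at 500 ng/mL for 48 h, which switches the transgene on. The labels do not say whether a line was a clone or a mixed population. Separate cultures for the replicates are not mentioned either, so p-values measure only the spread between these libraries, which may be technical. Values are scaled reads: reads per gene divided by the size factor of the library. The libraries held 27607055 to 37116655 reads, and 3 reads in a library, the limit that a count of 0 allows, came to 2.79 to 3.38 scaled reads.

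Semaphorins and ephrins are guidance cues that steer growing axons, vessels and migrating cells by attraction or repulsion. Secreted class 3 semaphorins bind a neuropilin, which pairs with a plexin that carries the signal into the cell, while membrane-bound semaphorins mostly bind plexins directly. Ephrins of the A type are anchored to the membrane by a lipid and those of the B type span it; both are read by Eph receptor tyrosine kinases on neighbouring cells. Plexins act on small GTPases and Eph receptors on exchange factors and adaptors that reshape the actin skeleton. MRTFA and MRTFB, which are released into the nucleus as actin assembles into filaments, act with serum response factor to transcribe genes of the cytoskeleton. Tumour cells often carry these cues and receptors, where they have been linked to invasion and to contact with vessels and nerves.

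The transgene labels were checked first. Mkl1, the gene of MRTFA, had 13728 ± 2454 scaled reads in E0771 MRTFA libraries (mean ± SD, n = 3 here and in what follows) and 1349 ± 202 in E0771 controls. In B16F10 the libraries labelled MRTFA had 1205 ± 266 and the controls 1015 ± 83.3, and these values overlapped. The smooth muscle actin Acta2, a target of this pathway, stood at 56336 ± 17915 in those libraries against 479 ± 311 in B16F10 controls. Mkl2, the gene of MRTFB, had 2158 ± 87.9 in E0771 MRTFB libraries and 1344 ± 106 in E0771 controls, and 1886 ± 128 in B16F10 libraries labelled MRTFB against 1501 ± 329.7 in B16F10 controls, which overlapped. Among the B16F10 libraries labelled MRTFB, replicate 3 stood apart, with an Acta2 value of 28018 where the lowest of the 3 was 2146. The 12 melanocyte markers summed to 390.1 to 645 scaled reads in E0771 libraries and 580218 to 783205 in B16F10 libraries. The 9 of 10 epithelial markers in the table summed to 5854 to 17174 in E0771 and 31.1 to 184 in B16F10. Krt8 made up most of the E0771 sum, with a mean of 6720 in E0771 controls and 1.602 in B16F10 controls. Cdh1 was at 4.57 in E0771 and 56.0 in B16F10 controls, and Esr1 at 10.01 in E0771 and 26.3 in B16F10 controls. Endothelial markers (2 of 6 in the table) summed to at most 26.5 in any library and the leukocyte marker (1 of 6) to at most 15.7. Fibroblast and neuron markers, which were higher, are given further below.

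The lines carried different sets of guidance genes, and more of them were found in B16F10. A mean of at least 10 scaled reads in some group was reached in both lines by 28 genes, in E0771 alone by 5 (Sema5a, Efna3, Epha8, Epha10 and Ephb3) and in B16F10 alone by 16. The B16F10 set held the secreted cues Sema3c, Sema3d, Sema3e and Sema3f, the membrane semaphorins Sema4f and Sema6a, the neuropilin Nrp1, the plexins Plxnb3 and Plxnc1, the ephrin Efna5 and the receptors Epha3, Epha4, Epha5, Epha7, Ephb2 and Ephb6. Plxna2 and Sema5b stayed under 10 in both lines. Some genes reached 10 only in a group with a transgene. In E0771 these were Epha1, Epha10, Plxna4 and Sema6c with MRTFA and Plxnb1 with MRTFB. In B16F10 they were Epha5 and Sema6c. In controls, 42 of the 51 genes reached 10 in B16F10 and 28 in E0771. The filter used below, at least 10 scaled reads in at least 3 libraries, passed 43 of the 51 within B16F10 and 32 within E0771. Within B16F10 the filter left out Plxnb3, although its control mean reached 10. It passed 13517 and 13189 of all 18909 genes. How many of all genes were found in 1 line alone was not counted. The plot of levels by family shows the 6 group means of each gene per kilobase of exon, which puts genes of different length on a common scale.

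**Figure D1:**
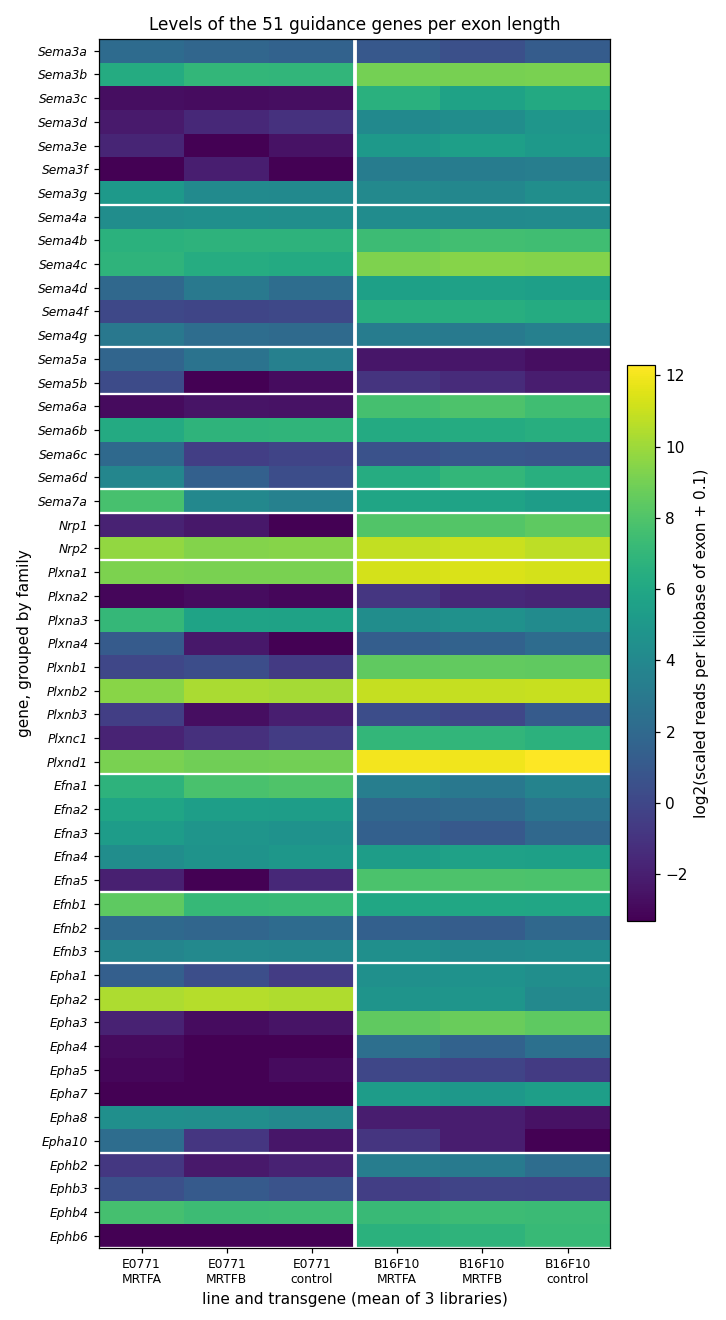
Mean level of each of the 51 genes, as log2 of scaled reads per kilobase of exon plus 0.1 (colour), in the 6 groups of 3 libraries (columns), with genes grouped by family (rows). Nrp1, Epha7, Ephb6 and Sema6a are near the bottom of the scale in the 3 E0771 columns and well above it in the 3 B16F10 columns, and Epha2 shows the opposite order.

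Per kilobase of exon, the order of the genes also differed between the lines. In E0771 controls Epha2 came first with 1385 ± 343 scaled reads per kilobase, followed by Plxnb2 (1171 ± 174), Nrp2 (687 ± 51.8), Plxna1 (575 ± 114) and Plxnd1 (491 ± 74.3). The gap between Plxnb2 and Nrp2 was larger than the SD of either gene, and the other neighbours in this order lay within 1 SD of each other. In B16F10 controls Plxnd1, the receptor of Sema3e, led with 4992 ± 244, followed by Plxna1 (2526 ± 236), Plxnb2 (2018 ± 58.0), Nrp2 (1716 ± 199) and Sema4c (679 ± 79.0). Each gap between neighbours in that order was larger than the SD of either gene.

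Between the controls of the lines, 39 of the 48 guidance genes tested differed, 9 higher and 30 lower in E0771. Of all 14859 genes tested, 70.2% differed, with 33.4% higher and 36.8% lower in E0771. The test was limma's moderated linear model on log2(scaled reads + 1), in which p-values were adjusted over all genes by Benjamini and Hochberg, those under 0.05 count as called, and a gene needed at least 10 scaled reads in at least 3 of the fitted libraries. A gene found in 1 line alone passes that filter through the line where it is high, so its call says little. Of the 27 guidance genes that passed the filter within each line, 5 were called higher in E0771 (Efna1, Efna2, Efnb1, Epha2 and Plxna3), 14 lower, and 8 were not called (Sema3a, Sema3g, Sema4a, Sema6b, Sema6c, Efnb2, Efnb3 and Ephb4). Among those 27, Plxna4, Plxnb1 and Sema6c passed in E0771 only through libraries with a transgene, and Plxna4 and Plxnb1 are among the 14 lower. The share called over all genes that passed within each line was not counted. These are bulk libraries, so more RNA per cell and more cells holding it cannot be told apart.

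Class 3 semaphorins and their neuropilin accounted for some of the widest gaps. Nrp1, which pairs with plexins of the A type for Sema3a (ENSMUSG00000025810.8, chromosome 8, 128358604 to 128503363), had 0, 0 and 0 scaled reads in the 3 E0771 controls and 3709, 3624 and 2774 in the 3 B16F10 controls. Against the limit of 3 reads over the group, Nrp1 was at least 3436-fold lower in E0771. Sema3c had 1 read over the E0771 controls and 1611 over those of B16F10, a ratio of 1584 (95% counting interval 284 to 62601), lower in E0771. For Sema3e the reads were 2 and 995, a ratio of 489 (interval 135 to 4045). The reads carry no molecular identifiers, so such intervals and limits cover counting error only. Nrp2, the other neuropilin, was found in both lines, with 7987, 7618 and 8816 in E0771 controls and 18386, 19639 and 22941 in B16F10 controls. The groups did not overlap, and the log2 difference was −1.32 (SE 0.09, limma adjusted p = 1.36e-09).

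Of the 19 semaphorins tested, 1 was higher and 13 were lower in E0771 controls, where 33.4% and 36.8% of all genes were. Sema5a passed the filter through E0771 alone, and Sema3c, Sema3d, Sema3e, Sema3f, Sema4f and Sema6a through B16F10 alone. Those calls say little. Sema5a had 626 reads over the E0771 controls and 3 over the B16F10 controls, a ratio of 212, higher in E0771 (interval 72.3 to 1032). Sema6a had 2 and 4904 reads, a ratio of 2411, lower in E0771 (interval 667 to 19913). Sema6d (−6.13), Sema4f (−6.37), Sema4d (−3.27), Sema4c (−3.20), Sema4g (−1.41) and Sema4b (−0.74) were lower in E0771 on the log2 scale. Sema7a was lower too (−1.73, limma adjusted p = 0.0337), with 30.2, 25.0 and 57.0 in E0771 controls and 90.4, 76.0 and 243 in B16F10 controls, which did not overlap.

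Receptors of the plexin family were mostly lower in E0771. Plxnd1 (ENSMUSG00000030123.15, chromosome 6, 115954811 to 115995005) had 3113, 4179.9 and 3471 in E0771 controls and 35927, 38426 and 34984 in B16F10 controls (log2 −3.35, limma adjusted p = 2.98e-11). Plxna1, a receptor of class 3 and class 6 semaphorins, had 4524, 6396 and 4710.4 in E0771 controls and 21857, 21424 and 25317 in B16F10 controls (log2 −2.15, adjusted p = 3.24e-09). An opposite-strand gene, Gm26811, shares 970 exon bases with Plxna1, and no label tells whether reads were counted by strand. Plxnb1, the receptor of Sema4d, had 4.03, 5.01 and 6.54 in E0771 and 3764, 3452 and 2885 in B16F10 (log2 −9.10). Plxnc1, the receptor of Sema7a, averaged 4.96 ± 3.56 and 855 ± 239 (log2 −7.28), and passed the filter through B16F10 alone. Plxnb2 differed less, with 7714, 10394 and 9017 in E0771 and 15435, 15224 and 16083 in B16F10 (log2 −0.80, adjusted p = 3.83e-05). Plxna3 was the plexin called higher in E0771, at 392 ± 32.9 against 148 ± 38.8 (log2 1.44, adjusted p = 1.01e-05).

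In the ephrin system the lines held different partners. Epha2, a receptor kinase of epithelial cells (ENSMUSG00000006445.3, chromosome 4, 141301240 to 141329384), had 4624, 7443 and 7352 in E0771 controls and 47.1, 38.0 and 145 in B16F10 controls. Its ligand Efna1 (ENSMUSG00000027954.9, chromosome 3, 89271733 to 89281142) had 476, 479.7 and 434 in E0771 and 12.5, 31.2 and 23.9 in B16F10. Every E0771 library was above every B16F10 library for both genes, and the log2 differences were 6.61 and 4.39 (limma adjusted p = 2.29e-08 and 2.6e-10). B16F10 instead held Efna5 and its receptor Epha3. Epha3 had 2 reads over the E0771 controls and 9105 over the B16F10 controls, a ratio of 4476, lower in E0771 (interval 1239 to 36966). Efna5 had 3 and 2926 reads, a ratio of 959 (interval 328 to 4653). Ephb6, an Eph receptor without kinase activity, had 0 reads over the E0771 controls and was at least 572-fold lower there than in B16F10 controls. Epha7 and Epha4 also had no read in E0771 controls and were at least 441-fold and at least 42.9-fold lower there. Epha8 had 235 reads over the E0771 controls and 1 over the B16F10 controls, a ratio of 239, higher in E0771 (interval 42.5 to 9480.2). Ephb4, the receptor of ephrin B2, was not called between the lines, at 798 ± 151 in E0771 controls and 749.9 ± 164 in B16F10 controls (log2 0.10, 95% interval −0.29 to 0.48). Of the 39 calls between controls, those of Ephb3, Efna4 and Sema7a were lost under some of the alternative settings.

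With MRTFA in E0771 cells, guidance genes moved both ways. The membrane-bound cues Sema7a, Sema6d and Sema4c, the receptor Plxna3 and the ephrin Efnb1 rose, while the ephrin Efna1, the receptor Plxnb2 and the semaphorins Sema5a and Sema3b fell. Of the 32 guidance genes tested, 11 rose and 5 fell. Over all 13189 genes tested in E0771, 38.4% were called, 20.3% higher and 18.1% lower. Plxna4, Epha10 and Sema6c passed the filter through the MRTFA libraries alone, and without them 8 of 29 rose and 5 of 29 fell. The median log2 change was 0.28 over the 32 genes, also with Plxna4 at its bound, and 0.15 over the 29, against −0.02 over all genes tested. The shares and median over all genes still include genes that passed the filter through the MRTFA libraries alone, so they are no like background for the 29. The number of calls fell to 9 without MRTFA replicate 2 and to 8 without MRTFA replicate 3; in both, the 3 genes that rest on the MRTFA libraries could no longer be tested.

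**Figure D2:**
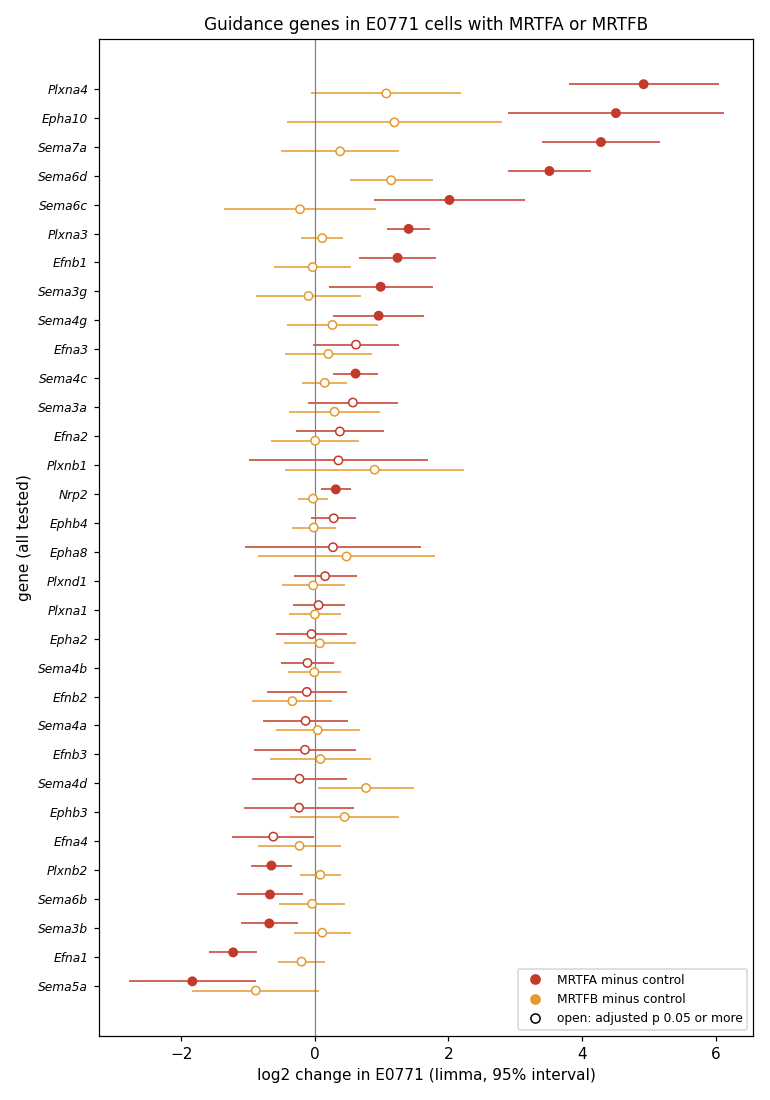
Log2 change (points) with its 95% interval (lines) of the 32 guidance genes tested in E0771, for MRTFA minus control (upper point of each pair) and MRTFB minus control (lower point), fitted by limma over 9 libraries. Filled points have an adjusted p under 0.05: 16 genes for MRTFA and 0 for MRTFB.

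Among the ligands, the largest rise of a gene with more than 50 scaled reads was that of Sema7a. This semaphorin is held at the membrane by a lipid anchor and is known to act through integrins and plexin C1 (ENSMUSG00000038264.7, chromosome 9, 57940112 to 57962865). Its values were 629, 629 and 876 in E0771 MRTFA libraries and 30.2, 25.0 and 57.0 in controls. The groups did not overlap, with a ratio of means of 19.0 and a log2 change of 4.28 (SE 0.40, limma adjusted p = 1.5e-05). Replicate 3 was the highest of the 3 in both groups. Per kilobase of exon Sema7a moved to 7th place among the 51 genes in MRTFA libraries, at 216 ± 43.2, against 11.3 ± 5.20 in controls.

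Sema6d, a membrane-spanning cue that binds plexin A1 (ENSMUSG00000027200.17, chromosome 2, 124089969 to 124667770), had 118, 141 and 190.2 in E0771 MRTFA libraries and 10.1, 10.0 and 16.8 in controls. All MRTFA values lay above all control values (log2 3.51, SE 0.28, limma adjusted p = 5.14e-06). Sema4c, a ligand of plexin B2 (ENSMUSG00000026121.13, chromosome 1, 36548639 to 36558349), had 599.6, 530.4 and 431 with MRTFA and 298, 375 and 345 in controls. That was a smaller rise without overlap (log2 0.61, SE 0.15, adjusted p = 0.00994). An opposite-strand transcript at about 30.5 scaled reads, D430040D24Rik, shares 334 exon bases with Sema4c.

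The semaphorins Sema3g, Sema4g and Sema6c rose as well, at lower levels. Sema3g, a secreted cue, averaged 151 ± 9.70 with MRTFA and 76.7 ± 15.9 in controls (log2 0.98, limma adjusted p = 0.0481). Sema4g averaged 65.3 ± 7.48 with MRTFA and 35.2 ± 15.2 in controls (log2 0.95, adjusted p = 0.032). Neither pair of groups overlapped, yet the Sema3g call was lost whichever of the 6 libraries was left out (log2 0.81 to 1.11). The Sema4g call was lost without MRTFA replicate 1, 2 or 3 or control replicate 1 or 2 (log2 0.64 to 1.27 over the libraries left out). Sema6c is among the 3 genes that passed the filter through MRTFA alone, and was singled out after its values were seen. It had 31.9, 26.9 and 10.4 with MRTFA and 2.01, 7.01 and 5.61 in controls (log2 2.01, adjusted p = 0.0104).

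Sema5a, Sema3b and Sema6b fell with MRTFA in E0771. Sema5a, a membrane cue with thrombospondin repeats (ENSMUSG00000022231.9, chromosome 15, 32244810 to 32696341), had 55.8, 27.9 and 106 in MRTFA libraries and 185, 159 and 264 in controls. The groups did not overlap although their spread was wide (log2 −1.83, SE 0.43, limma adjusted p = 0.00701). Sema3b, a secreted cue described as a tumour suppressor in human lung cancer (ENSMUSG00000057969.15, chromosome 9, 107597674 to 107609229), had 413, 390.1 and 286 with MRTFA and 559.8, 750.1 and 456 in controls (log2 −0.68, SE 0.19, adjusted p = 0.0167). Every MRTFA value was below every control value. Its call was lost without MRTFA replicate 3 or control replicate 2 (log2 −0.85 to −0.49 over the libraries left out). Sema6b, a ligand of plexin A4, averaged 297 ± 64.2 with MRTFA and 476 ± 119 in controls (log2 −0.67, adjusted p = 0.0344). Its call was lost without MRTFA replicate 2 or 3 or control replicate 2 or 3 (log2 −0.84 to −0.48 over the libraries left out). The remaining 4 semaphorins tested, Sema3a, Sema4a, Sema4b and Sema4d, had log2 values of 0.57, −0.14, −0.11 and −0.23 and were not called.

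Of the 6 plexins tested, 2 rose and 1 fell, where 38.4% of all genes were called. Plxna3, which pairs with neuropilins to read class 3 semaphorins (ENSMUSG00000031398.13, chromosome X, 74329066 to 74344689), had 1211, 891 and 1033 in E0771 MRTFA libraries and 369, 379 and 429.8 in controls. The lowest MRTFA value was more than 400 scaled reads above the highest control value, and the log2 change was 1.40 (SE 0.14, limma adjusted p = 2.94e-05). Plxnb2, a receptor of Sema4c and Sema4d (ENSMUSG00000036606.16, chromosome 15, 89155549 to 89180788), had 6392, 5630.0 and 5184 with MRTFA and 7714, 10394 and 9017 in controls. All MRTFA values were below all control values (log2 −0.65, SE 0.14, adjusted p = 0.00435). Plxna4, a receptor of Sema3a and of Sema6a and Sema6b, was singled out after its values were seen. It passed the filter through the MRTFA libraries alone, so its call says little. It had 39.8, 33.4 and 18.8 with MRTFA and no read in any control (0, 0 and 0), so that it was at least 31.6-fold higher with MRTFA (adjusted p = 3.11e-05). The 2 plexins of highest level beside Plxnb2 were not called: Plxna1 had 5745, 6289 and 4231 with MRTFA and 4524, 6396 and 4710.4 in controls (log2 0.06, 95% interval −0.33 to 0.44). Plxnd1 had 4867, 4714 and 2712 with MRTFA and 3113, 4179.9 and 3471 in controls (log2 0.15, interval −0.32 to 0.63). Both pairs of groups overlapped.

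The neuropilin found in E0771, Nrp2 (ENSMUSG00000025969.15, chromosome 1, 62703285 to 62818695), had 9081, 10052 and 11279 in MRTFA libraries and 7987, 7618 and 8816 in controls. The groups did not overlap, and the rise was small (log2 0.31, SE 0.10, limma adjusted p = 0.0298). The Nrp2 call was lost without MRTFA replicate 2 or 3 or control replicate 1 or 2 (log2 0.23 to 0.39 over the libraries left out), without the filter and under upper-quartile scaling. Nrp1 was under the filter in E0771, with 5 reads over the 3 MRTFA libraries and 0 over the controls.

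Of the 7 ephrins tested, Efna1 fell and Efnb1 rose, where 38.4% of all genes were called. Efna1, the ligand of Epha2, had 248, 166 and 187 in E0771 MRTFA libraries and 476, 479.7 and 434 in controls (log2 −1.22, SE 0.16, limma adjusted p = 0.000184). Efnb1, a membrane-spanning ephrin that can also signal backward into its own cell (ENSMUSG00000031217.8, chromosome X, 99136130 to 99148991), had 1345, 1378 and 797 with MRTFA and 432, 671 and 388 in controls (log2 1.24, SE 0.26, adjusted p = 0.00369). Neither gene's groups overlapped, and for Efnb1 the gap between the lowest MRTFA and the highest control value was the narrower one. Efna2, Efna3, Efna4, Efnb2 and Efnb3 were not called, with log2 values between −0.62 for Efna4 and 0.62 for Efna3.

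Of the Eph receptors, Epha10 was the one of 5 tested that was called, where 38.4% of all genes were called. It passed the filter through the MRTFA libraries alone, so its call says little. It lacks kinase activity and was singled out after its values were seen, with 37.9, 42.7 and 19.9 in E0771 MRTFA libraries and 2.01, 0 and 0 in controls. Over the groups that was 103 reads against 2, a ratio of 51.9 (95% counting interval 14.0 to 434; limma adjusted p = 0.000768). Epha2, the guidance gene of highest level in E0771 per kilobase of exon, had 5398, 6341 and 6658 with MRTFA and 4624, 7443 and 7352 in controls. These groups overlapped, and the log2 change was −0.05 (95% interval −0.59 to 0.49, adjusted p = 0.892). Ephb4 (0.28), Ephb3 (−0.24) and Epha8 (0.27) were not called either, on the log2 scale. Of the genes under the filter, Sema5b had 23 reads over the MRTFA libraries and 1 over the controls, a ratio of 23.2 (interval 3.76 to 955).

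**Figure D3:**
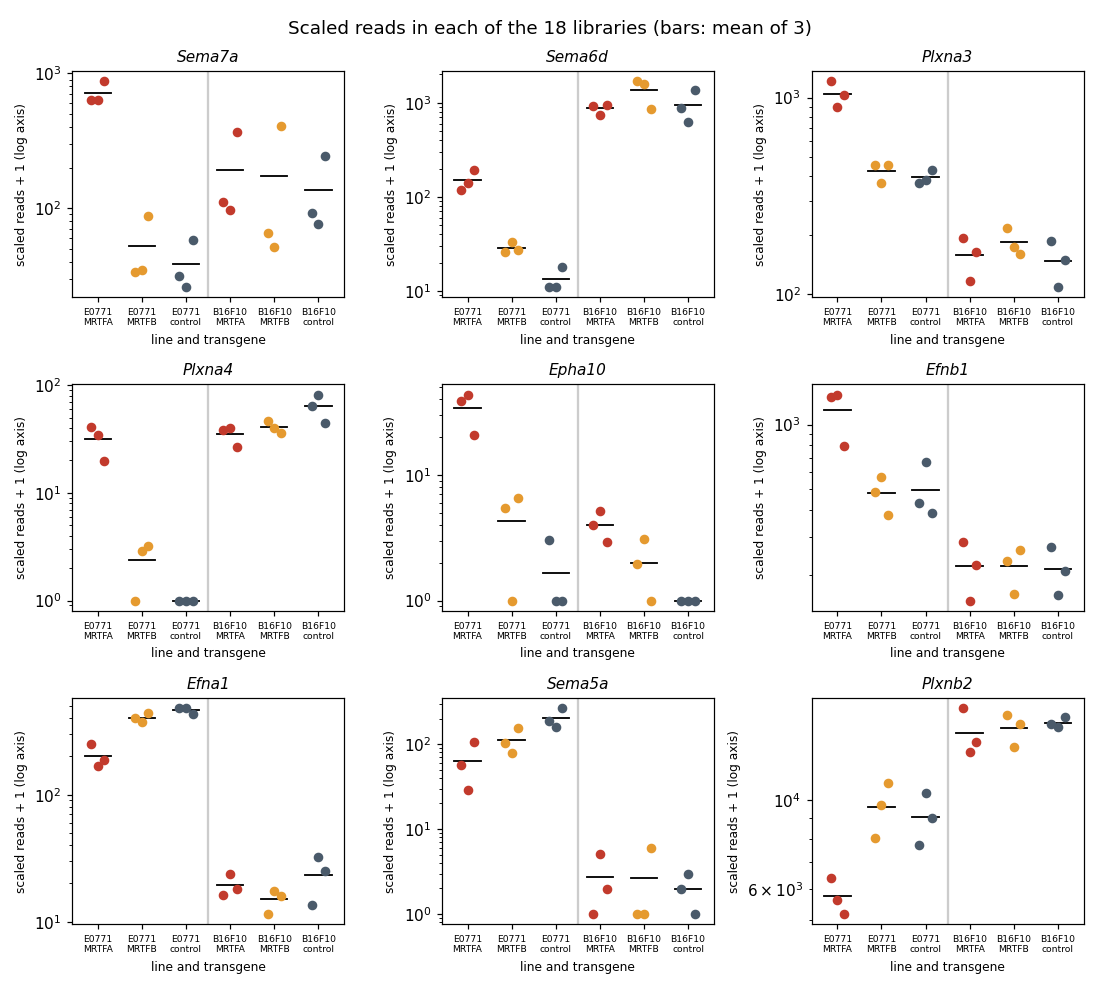
Scaled reads plus 1 on a log axis in each of the 18 libraries (points; horizontal bars are means of 3) for 9 guidance genes, by line and transgene. In E0771 the MRTFA points lie above the control points for Sema7a, Sema6d, Plxna3, Plxna4, Epha10 and Efnb1, and below them for Efna1, Sema5a and Plxnb2.

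Markers of other cell types also differed between E0771 MRTFA libraries and controls. The summed epithelial markers were 15171 to 17174 scaled reads in E0771 MRTFA libraries and 5854 to 7931 in controls. Krt8 carried that sum, with means of 15549 with MRTFA and 6720 in controls, while Epcam averaged 33.5 with MRTFA and 42.1 in controls. The summed fibroblast markers (4 of 5 in the table) were 12064 to 15159 with MRTFA and 3936 to 6810 in controls. Col3a1 averaged 10790 with MRTFA and 2562 in controls, Pdgfra averaged 362 with MRTFA and 909 in controls, and Dcn averaged 2.21 with MRTFA and 0 in controls. Melanocyte markers summed to 390.1 to 404 with MRTFA and 563 to 645 in controls. Of the endothelial, leukocyte and neuron markers few were in the table (2 of 6, 1 of 6 and 2 of 5), and the endothelial and leukocyte sums were at most 26.5 in any library. The neuron markers, Tubb3 and Map2, were higher. They summed to 1155 to 1786 in E0771 MRTFA libraries, 807 to 1595 in E0771 controls and 4819 to 7144 in B16F10 controls. Map2 averaged 0 in E0771 MRTFA libraries and controls and 548 in B16F10 controls, so Tubb3 made up the E0771 sums. The part of such markers in the changes of guidance genes was not tested.

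Promoter sequence was read for the guidance genes because serum response factor, the partner of MRTFA, binds the CArG box. RefSeq promoter windows of the GRCm38.p6 build, from 250 bases before to 50 bases after the start site, matched 45 of the 51 genes. These genes had 59 windows, since some have more than 1 start site, and a motif in any window of a gene was counted. A CArG box was found on either strand in the windows of 1 of the 45 genes, Sema4d, and in 1.81% of the 27025 genes with a window. It was in 0 of the 10 windowed genes that rose and 0 of the 4 that fell with MRTFA in E0771. The pattern TGANTCA, which is looser than the AP-1 consensus, was in 3 of the 45 genes and in 8.97% of all genes. The matches were TGACTCA in Sema4c, TGAGTCA in Sema6b and TGAATCA in Sema4d. The AP-1 consensus has C or G as its middle base, so the Sema4d match is not a consensus AP-1 site. The share of genes with the consensus itself was not counted. An E-box (CANNTG) was in 27 of the 45, which is 60.0%, and in 74.99% of all genes. None of the TGANTCA matches overlaps the CArG box.

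The windows shown are those of Sema4d, which holds the one CArG box, of Sema4c and Sema6b, which hold an AP-1 site and moved in opposite directions with MRTFA in E0771, and of Sema7a, which rose most among the abundant genes and holds neither. Each gives the 250 bases before the start site, 5′ to 3′ on the strand of the gene, with a CArG box or TGANTCA match in capitals.
Sema4d, minus strand, chr13:51748811-51749060: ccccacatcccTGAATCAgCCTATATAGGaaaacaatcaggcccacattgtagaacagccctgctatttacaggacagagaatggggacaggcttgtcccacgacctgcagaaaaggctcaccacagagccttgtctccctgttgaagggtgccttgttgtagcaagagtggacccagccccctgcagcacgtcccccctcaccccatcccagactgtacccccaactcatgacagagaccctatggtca
Sema4c, minus strand, chr1:36558382-36558631: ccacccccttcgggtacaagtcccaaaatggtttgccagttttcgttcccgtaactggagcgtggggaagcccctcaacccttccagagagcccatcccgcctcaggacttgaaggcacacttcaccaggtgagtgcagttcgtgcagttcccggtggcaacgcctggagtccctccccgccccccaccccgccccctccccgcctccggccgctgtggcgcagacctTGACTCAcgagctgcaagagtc
Sema6b, minus strand, chr17:56133853-56134102: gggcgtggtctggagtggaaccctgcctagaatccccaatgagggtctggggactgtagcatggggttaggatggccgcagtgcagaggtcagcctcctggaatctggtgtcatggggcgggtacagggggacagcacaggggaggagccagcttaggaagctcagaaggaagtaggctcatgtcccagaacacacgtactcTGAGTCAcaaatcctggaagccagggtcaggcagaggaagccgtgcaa
Sema7a, plus strand, chr9:57939862-57940111: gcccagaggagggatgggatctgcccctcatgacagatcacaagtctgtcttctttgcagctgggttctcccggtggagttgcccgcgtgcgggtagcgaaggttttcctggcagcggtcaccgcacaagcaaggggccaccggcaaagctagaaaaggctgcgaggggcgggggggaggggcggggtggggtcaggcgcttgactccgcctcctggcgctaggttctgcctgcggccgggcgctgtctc
In Sema4d the box CCTATATAGG starts 231 bases before the start site and the match TGAATCA 239 bases before it. Sema4d was called neither with MRTFA (log2 −0.23) nor with MRTFB (0.77) in E0771. The AP-1 site of Sema4c starts 22 bases and that of Sema6b 48 bases before the start site. These positions refer to the windows shown. Sema4d, Sema4c and Sema6b each have further windows at other start sites, which hold neither a CArG box nor an AP-1 site. These matches describe letters in this window and no binding was measured.

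MRTFB in E0771 cells gave no call among the 32 guidance genes, where 0.144% of all genes were called. At an unadjusted p under 0.05 there were 2 guidance genes, Sema6d and Sema4d, and 335 of all 13189 genes. The fits by edgeR, by DESeq2 and with replicate number as a block made 0 calls of guidance genes. Over all genes edgeR made 13 calls and DESeq2 51, and the block called 0.25%. Sema6d had 24.8, 32.01 and 26.5 in E0771 MRTFB libraries and 10.1, 10.0 and 16.8 in controls. Every MRTFB value was above every control value, at a log2 value of 1.14 (95% interval 0.52 to 1.76, limma adjusted p = 0.45). Sema4d averaged 59.5 ± 10.6 with MRTFB and 36.4 ± 14.3 in controls (log2 0.77, adjusted p = 1). For Sema7a the values were 32.6, 33.9 and 87.2 with MRTFB and 30.2, 25.0 and 57.0 in controls, which overlapped (log2 0.38, interval −0.51 to 1.26). For Plxna3 the log2 value was 0.11 (interval −0.21 to 0.43), and for Efna1 it was −0.20 (interval −0.56 to 0.15).

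Set against the MRTFA libraries, E0771 MRTFB libraries differed in 15 of the 32 genes, 5 higher and 10 lower, where 33.6% of all genes were called (14.5% higher and 19.1% lower). Without Plxna4, Epha10 and Sema6c, which passed the filter through the MRTFA libraries alone, 12 of 29 were called, 5 higher and 7 lower. Such genes were not taken out of the share over all genes. This comparison shares its MRTFA libraries with the one against control, so the values stand side by side and are no second line of support. Sema7a averaged 51.2 ± 31.1 with MRTFB and 711 ± 143 with MRTFA, a log2 difference of −3.90 (limma adjusted p = 3.4e-05). Sema6d averaged 27.7 ± 3.79 and 149.6 ± 37.0 (−2.37, adjusted p = 0.000102), and Plxna3 425 ± 48.1 and 1045 ± 161 (−1.29, adjusted p = 6.1e-05). Efnb1, Plxna4, Epha10, Sema6c, Sema3g, Sema4c and Nrp2 were also lower with MRTFB. Efna1 (1.02), Plxnb2 (0.73), Sema3b (0.79), Sema6b (0.63) and Sema4d (0.996) were higher. Sema4d, a membrane semaphorin known for its action on plexin B1, had 49.5, 70.6 and 58.5 with MRTFB and 33.9, 28.8 and 25.1 with MRTFA; these did not overlap. With equal replicate numbers paired the count was 16 (43.8% of all genes), which adds Sema5a (0.95, adjusted p = 0.116 unblocked and 0.00618 blocked). The count was 9 without MRTFA replicate 1 and 7 without MRTFA replicate 2, and the calls of Sema4d, Sema6b, Sema3g, Sema4c and Nrp2 were lost under some alternatives.

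In B16F10 cells few guidance genes were called without pairing of replicate numbers. With equal numbers paired, as given further below, 6 were called for the MRTFA and 4 for the MRTFB label (6.33% and 4.46% of all genes). In the unpaired fit of the libraries labelled MRTFA, 1 of 43 genes tested was called against control. There 1.55% of all genes were called. An unadjusted p under 0.05 was found for 6 guidance genes and for 1272 of all 13517 genes. The called gene was Ephb2, a receptor of ephrins of the B type (ENSMUSG00000028664.14, chromosome 4, 136647539 to 136835988). Ephb2 had 109, 121 and 131 in the libraries labelled MRTFA and 54.8, 47.7 and 71.6 in controls. The groups did not overlap (log2 1.05, SE 0.20, limma adjusted p = 0.0311). The call was lost without the filter, at a minimum of 50, and without any one of MRTFA replicates 1, 2 and 3 and control replicates 1 and 2 (log2 0.92 to 1.21 over the libraries left out). In the libraries labelled MRTFB Ephb2 had 103, 88.0 and 124, also above every control, at a log2 value of 0.85 (adjusted p = 0.2, and 0.0146 with the replicate block).

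In the unpaired fit of the libraries labelled MRTFB, 0 of 43 genes were called against control, where 0.126% of all genes were called. At an unadjusted p under 0.05 there were 10, and 1199 of all 13517 genes. DESeq2 called 1 guidance gene and 179 of all genes. Between the libraries labelled MRTFB and those labelled MRTFA the count called by limma was also 0 of 43, where 1.09% of all genes were called. At an unadjusted p under 0.05 there were 4, and 586 of all 13517 genes. With equal replicate numbers paired, as the correlations of their deviations allowed, 6 genes were called for MRTFA (6.33% of all genes), 4 for MRTFB (4.46% of all genes) and 0 between the labels (2.66% of all genes).

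The genes called in the paired fits include 2 abundant ones, and their library values were looked up after that. The neuropilin Nrp1 had 2564, 2676 and 2578 in B16F10 libraries labelled MRTFA and 3709, 3624 and 2774 in controls. All 3 control values were above the highest value of the labelled libraries (log2 −0.36, limma adjusted p = 0.209 unblocked and 0.0289 blocked). Sema6a, a membrane cue that binds plexins A2 and A4, had 2119, 2153 and 2149.8 in libraries labelled MRTFB and 1430.4, 1402 and 1887 in controls, again without overlap (log2 0.46, adjusted p = 0.194 unblocked and 0.0203 blocked). Ephb6 had 439.6, 293 and 411 with the MRTFA label and 571, 609.6 and 502 in controls (log2 −0.57, adjusted p = 0.162 unblocked and 0.0264 blocked). The others were Epha2, higher under both labels (0.66 and 0.66), Sema3d, lower under both (−0.75 and −0.55), and Plxna4, lower with the MRTFA label (−0.83), on the log2 scale.

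The most abundant guidance genes of B16F10 were plexins and Nrp2, and none of them was called. Plxnd1 had 34637, 26330.2 and 30946 in libraries labelled MRTFA, 29897, 29237 and 28688 in those labelled MRTFB and 35927, 38426 and 34984 in controls. Every labelled library was below every control for Plxnd1 (log2 −0.26 and −0.32, limma adjusted p = 0.427 and 0.349). Nrp2 had 21287, 23135 and 21710.2 with the MRTFA label, 24629, 24389.5 and 24223 with the MRTFB label and 18386, 19639 and 22941 in controls. The MRTFB values lay above all control values (log2 0.27, adjusted p = 0.365). Plxna1 had 25948, 19442 and 21944 with the MRTFA label, 27984, 23625 and 22575 with the MRTFB label and 21857, 21424 and 25317 in controls. These groups overlapped, as did those of Plxnb2 and Plxnb1. Plxnb2 had 16955, 13137 and 13977 with the MRTFA label, 16277, 13555 and 15446 with the MRTFB label and 15435, 15224 and 16083 in controls. Plxnb1 had 4422, 3097 and 2716 with the MRTFA label, 4319, 3241 and 3297 with the MRTFB label and 3764, 3452 and 2885 in controls.

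Epha2, Sema7a and Sema3f stood out in B16F10 because their values followed the replicate number; they were chosen after their values were seen. Epha2 had 65.5, 64.1 and 249 with the MRTFA label, 58.1, 68.3 and 263 with the MRTFB label and 47.1, 38.0 and 145 in controls. Sema7a in B16F10 had 109.9, 96.2 and 363 with the MRTFA label, 64.8, 50.7 and 404 with the MRTFB label and 90.4, 76.0 and 243 in controls. Sema3f had 40.3, 23.8 and 83.9 with the MRTFA label, 34.3, 30.03 and 81.2 with the MRTFB label and 38.5, 38.9 and 83.0 in controls. In all 3 groups replicate 3 was the highest for each of these genes, by at least 3.08 times the next value for Epha2, 2.69 times for Sema7a and 2.08 times for Sema3f. Epha4, Ephb2 and Sema3d were also highest in replicate 3 of all 3 groups, by at least 1.21, 1.08 and 1.09 times. What the numbers stand for is not stated in the labels. Replicate 3 of the MRTFB label, which stood apart for Acta2, was also the highest of its group for the secreted cues Sema3c (253, 169 and 671) and Sema3e (298, 251 and 707) and the lowest for Sema6d (1700.3, 1582 and 859). Without that library 0 guidance genes were called against control and 1 against the libraries labelled MRTFA.

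**Figure D4:**
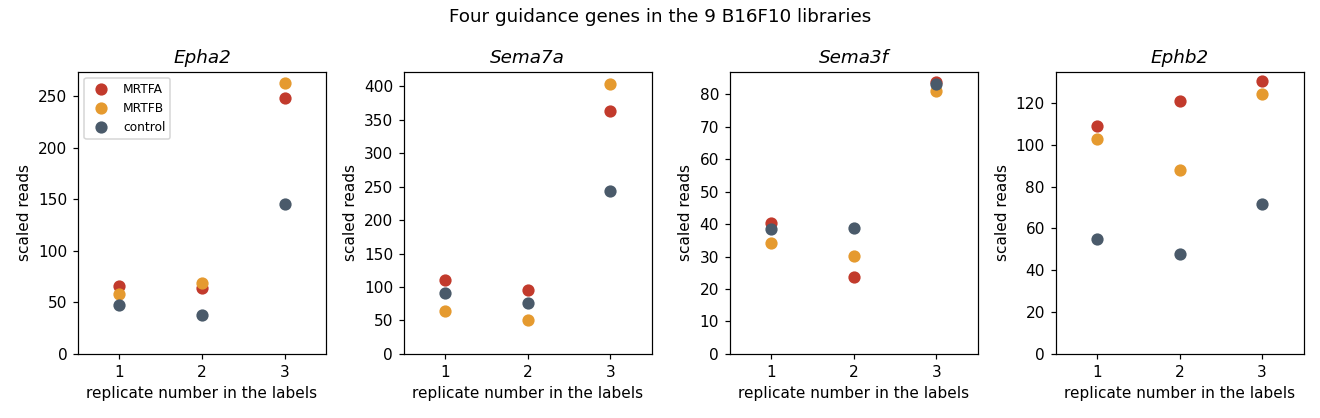
Scaled reads of Epha2, Sema7a, Sema3f and Ephb2 in the 9 B16F10 libraries, by the replicate number of the labels (x axis) and the transgene label (colour). For Epha2, Sema7a and Sema3f the replicate 3 libraries are highest in each group, while for Ephb2 the points of both transgene labels lie above the control points at every number.

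The effect of MRTFA differed between the lines for 10 of the 48 genes tested, 9 with a higher and 1 with a lower effect in E0771, where 21.1% of all 14859 genes were called (12.6% higher and 8.55% lower). The largest differences were those of Plxna4, Sema7a and Sema6d. For Sema6d the log2 effect was 3.51 in E0771 and −0.07 in B16F10, and the difference was 3.58 (SE 0.42, limma adjusted p = 1.59e-05). B16F10 held Sema6d at 871 ± 108 with the MRTFA label and 954 ± 369 in controls, so every B16F10 library was above every E0771 library. For Sema7a the effects were 4.28 in E0771 and 0.40 in B16F10, where the 95% interval was −1.34 to 2.14 (difference 3.89, adjusted p = 0.00963). For Plxna3 they were 1.40 and 0.10 (difference 1.31, adjusted p = 0.00491).

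The Plxna4 level with MRTFA was above control in E0771 and below control in B16F10, where it was not called in the unblocked fit. It had 39.8, 33.4 and 18.8 in E0771 MRTFA libraries and 0, 0 and 0 in E0771 controls, and 37.3, 39.3 and 25.7 in B16F10 libraries labelled MRTFA and 62.5, 80.8 and 43.9 in B16F10 controls. The means under MRTFA were 30.7 ± 10.8 in E0771 and 34.1 ± 7.32 in B16F10. The fitted difference was 5.75 (adjusted p = 2.28e-06), and its size depends on the pseudocount because E0771 controls had no read. Sema4c (difference 0.76), Sema3g (1.36), Sema6c (2.16), Efnb1 (1.21) and Epha1 (1.68) also had a higher effect in E0771, and Plxnb2 a lower one (−0.56). Epha1 was under the filter in E0771 (10.1 ± 1.68 with MRTFA and 2.28 ± 1.11 in controls). It shares 236 exon bases with Zyx on the opposite strand, whose log2 change with MRTFA in E0771 was 1.80, and the part of Zyx reads in its value was not tested. The count of 10 fell to 5 without E0771 MRTFA replicate 2, to 5 without B16F10 control replicate 1 and to 6 without B16F10 MRTFA replicate 2. Sema4c, Sema6d, Sema7a, Plxna3 and Plxna4 were called in every alternative that gave a value. For MRTFB 0 of 48 genes had a line difference, where 0.114% of all genes were called. An unadjusted p under 0.05 was found for 3 of the 48 and for 811 of all 14859 genes.

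**Figure D5:**
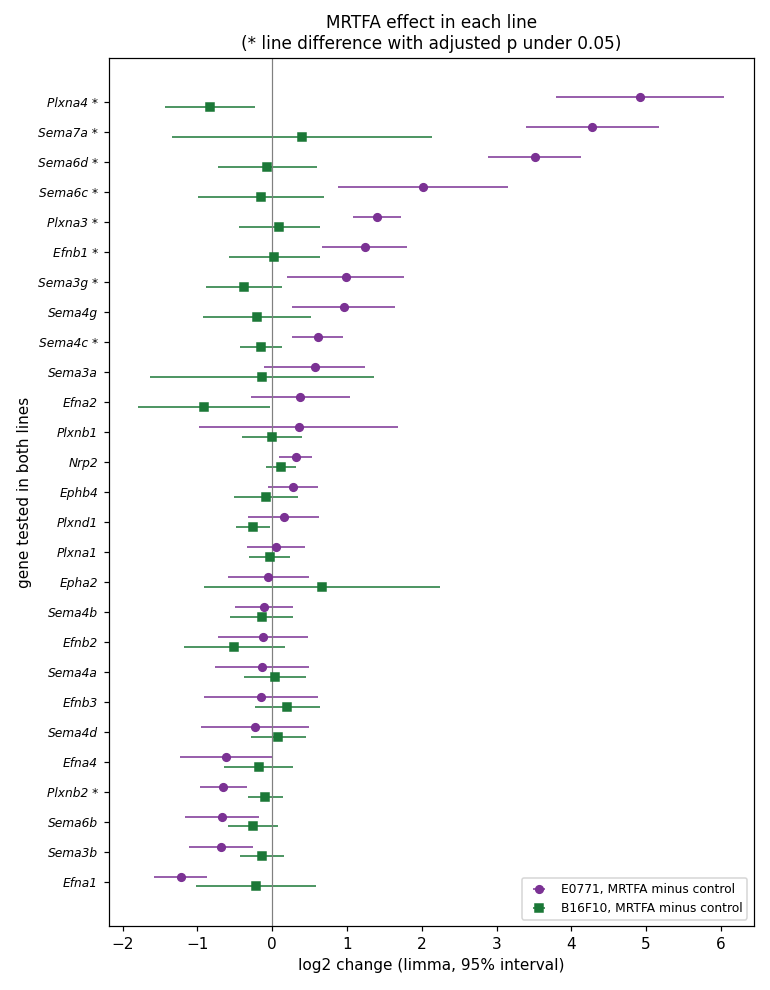
Log2 change with MRTFA (points) and its 95% interval (lines) in E0771 (upper point of each pair) and in B16F10 libraries labelled MRTFA (lower point), for the 27 guidance genes tested in both lines. An asterisk marks the 9 genes whose difference between the lines had an adjusted p under 0.05.

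Known ligands and receptors were set side by side in the cells that held them. Sema7a rose in E0771 with MRTFA to a mean of 711, while its receptor Plxnc1 had 0, 2.79 and 2.09 in those libraries and 9.06, 3.004 and 2.80 in E0771 controls. In B16F10 Plxnc1 averaged 1055 ± 52.5 with the MRTFA label and 855 ± 239 in controls. Integrins, through which Sema7a is also known to act, are not among the guidance genes, and the subunit Itga1 is given with the partners below. Sema4c rose in E0771 with MRTFA and its receptor Plxnb2 fell, with ratios of means over control of 1.53 and 0.634. Efna1 fell there to a ratio of 0.433 of control, while Epha2 stood at 0.947 and was not called. Sema3e and its receptor Plxnd1 were both present in B16F10, at 319.5 ± 21.5 and 36446 ± 1778 in controls, and in E0771 controls Plxnd1 averaged 3588 ± 543 where Sema3e had 2 reads in all. Efnb2 and its receptor Ephb4 were present in both lines and were called for neither transgene. Protein, its place in the cell and binding were not measured.

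Family sums give the scale of these changes. Semaphorins together held 3123 ± 226 scaled reads in E0771 MRTFA libraries, 2612 ± 323 in MRTFB libraries and 2578 ± 239 in controls. Plexins held 16345 ± 2753 with MRTFA, 18731 ± 2631 with MRTFB and 18244 ± 2859 in controls. Ephrins held 1693 ± 425 with MRTFA, 1157 ± 67.9 with MRTFB and 1236 ± 194 in controls. These family sums carry no test. B16F10 controls held 12102 ± 1027 of semaphorins and 79343 ± 1204 of plexins.

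Genes that act downstream of these receptors were also read from lists, which were chosen with earlier results of these data known. With MRTFA in E0771, 15 of 31 tested mediators of semaphorin and plexin signals rose and 4 fell (median log2 0.30, against −0.02 over all genes, of which 38.4% were called). They were led by the small GTPases Rras (2.33) and Rnd3 (2.26), the flavoprotein Mical2 (2.15), which oxidises actin, and Sh3bp1 (1.42), a GTPase-activating protein that binds plexin. Of 30 tested mediators of Eph and ephrin signals 9 rose and 3 fell (median 0.05), led by the adaptor Nck2 (2.18), the exchange factors Kalrn (6.15) and Vav3 (3.92) and the adaptor Crk (0.59). Of 12 tested co-receptors and partners 6 rose and 1 fell (median 0.57), with the integrin subunit Itga1 at 4.26, Cntn2 at 5.54, the semaphorin-processing protease Furin at 2.05 and the receptor kinase Met at −0.82. Of 13 tested members of other guidance families 5 rose and 3 fell (median 0.17), with the netrin relative Ntng1 at 8.44, Unc5b at 0.85, Flrt2 at −0.90 and Neo1 at −0.34. Which list genes passed the filter through MRTFA libraries alone, in either line, was not counted, and calls of such genes say little. Where controls hold few reads, the log2 value depends on the pseudocount.

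In B16F10 libraries labelled MRTFA, where 1.55% of all genes were called, each list held 1 or 2 calls. The mediator Rnd2 was lower (−0.56, 1 of 30 tested), Kalrn was higher (2.68, 1 of 28) and Itga1 was higher (1.57, 1 of 12). Of 13 tested members of other guidance families, Ntng1 was higher (5.69) and the secreted cue Slit2 lower (−1.26). With equal replicate numbers paired, the calls there were 5 higher and 3 lower of 30, 2 higher and 0 lower of 28, 1 higher and 1 lower of 12, and 2 higher and 1 lower of 13, where 6.33% of all genes were called. In B16F10 libraries labelled MRTFB Slit2 was lower (−1.75) and the other 3 lists had 0 calls, where 0.126% of all genes were called. Paired, the 4 lists in the same order had 2 higher and 4 lower, 0 higher and 1 lower, 1 higher and 0 lower, and 1 higher and 1 lower, where 4.46% of all genes were called. In E0771 MRTFB libraries all 4 lists had 0 calls, where 0.144% of all genes were called. At an unadjusted p under 0.05 the lists had 2, 0, 2 and 0 genes, and all genes tested had 335 of 13189. The difference between the lines in the MRTFA effect was called for 16 of 32 semaphorin and plexin mediators (11 higher and 5 lower in E0771), 7 of 32 Eph and ephrin mediators, 6 of 15 partners and 3 of 16 members of other families, where 21.1% of all genes were called.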

How the data were processed

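RNA of 18 libraries was sequenced, 3 in each of 6 groups named by the sample titles. Per the submitters' processing notes, cutadapt 1.6, STAR 2.5.0a, HTSeq 0.5.3 and DESeq were used with the mm10 build; the sources used here give neither their roles nor the annotation release, the counting mode or the use of strand. The deposited values are a signal: gene counts that the authors divided by size factors, as the name of the table and the even steps of its values show. Dividing the values of each library by the worth of 1 read gave whole reads for 100% of values (within 0.001 read), with 27607055 to 37116655 reads a library. Pairs of replicates had a chi-square of 11.7 to 59.2 per degree of freedom over genes, so none was counted as a duplicate.

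The guidance genes are all rows whose symbol follows the naming of semaphorins 3 to 7, plexins, neuropilins, Eph receptors and ephrins. The members and lists were chosen with earlier results of these data known. Values plus a pseudocount of 1 were log2 transformed and fitted with limma 3.58.1 (R 4.3.3, trend, two-sided), within a line over 9 libraries, and over all 18 for contrasts of the lines, after a filter of at least 10 in at least 3 libraries. The p-values were adjusted over all genes tested by the method of Benjamini and Hochberg, and a gene with an adjusted p under 0.05 was called. Alternatives were a pseudocount of 5, no filter, a minimum of 50, upper-quartile scaling, edgeR 4.0.16 (quasi-likelihood, TMM) and DESeq2 1.42.0 on the whole reads, a replicate block, and each library left out.

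Replicate numbers were taken to pair libraries where the deviations of all same-numbered pairs correlated by more than 0.1. That held for the 3 contrasts within B16F10 (r of 0.353 to 0.634 over genes) and for MRTFB against control and MRTFB against MRTFA in E0771 (0.134 to 0.553), not for MRTFA against control in E0771 (lowest 0.084) nor between lines. Every member may be named. Library values are given for up to 10 called genes per contrast with control with a mean of at least 50, for the 5 genes of highest mean in each line, and for genes said to be singled out. Up to 4 called genes per pathway list, by adjusted p, are named. Symbols and coordinates are those of GENCODE M21 on GRCm38, which held all 51 genes. Fold limits at 0 reads use 3 reads over the group. The fits were tested on simulated counts first.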

Additional observations from a re-analysis of the deposited data

Results flagged for a closer look

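The effect of MRTFA on 10 of 48 guidance genes (20.8%) differed between the lines by a test of the difference itself, limma's contrast of E0771 minus B16F10 with p-values adjusted over all genes, of which 21.1% were called. Each value is that difference on the log2 scale, followed by the effect in E0771 and in B16F10 libraries labelled MRTFA where both were tested. Sema7a differed by 3.89 (adjusted p = 0.00963), with 4.28 in E0771 and 0.40 in B16F10. Sema6d differed by 3.58 (adjusted p = 1.59e-05), with 3.51 in E0771 and −0.07 in B16F10. Sema6c differed by 2.16 (adjusted p = 0.0232), with 2.01 and −0.15. Sema3g differed by 1.36 (adjusted p = 0.0413), with 0.98 and −0.37. Sema4c differed by 0.76 (adjusted p = 0.0118), with 0.61 and −0.15. Efnb1 differed by 1.21 (adjusted p = 0.0445), with 1.24 and 0.03.

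Among receptors, Plxna4 differed by 5.75 (adjusted p = 2.28e-06), a size that depends on the pseudocount since E0771 controls had no read. Plxna3 differed by 1.31 (adjusted p = 0.00491), with 1.40 in E0771 and 0.10 in B16F10. Plxnb2 differed by −0.56 (adjusted p = 0.0413), with −0.65 and −0.09. Epha1 differed by 1.68 (adjusted p = 0.0226), and was under the filter in E0771. In B16F10 the Mkl1 level did not set the MRTFA libraries apart from controls, while in E0771 it did, and the part of that in these differences was not tested.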

How the results depend on the processing

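No called guidance gene changed direction under any alternative run. Of the 32 tested in E0771, 16 were called with MRTFA, and 13 to 16 under the other settings of scaling, filter, pseudocount and tool (14 of 51 tested without the filter and 13 of 24 at a minimum of 50); leaving out 1 library gave 8 to 14. For MRTFB against MRTFA in E0771 the count was 15, with 7 to 13 when 1 library was left out. In B16F10 with the MRTFA label it was 1, with 0 at a minimum of 50, 0 without the filter and 0 to 2 when 1 library was left out. With the MRTFB label it was 0, with 1 by DESeq2 and 0 to 2 when 1 library was left out, and for MRTFB against MRTFA there it was 0, with 0 to 1. The line difference with MRTFA was called for 10, with 5 to 10 when 1 library was left out, and the contrast of controls for 39, with 37 to 38. Single-gene results kept their side of the threshold in 5111 comparisons with an alternative, became called in 35 and lost the call in 120.

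With the replicate block, guidance genes called numbered 6 for the MRTFA and 4 for the MRTFB label in B16F10. Where numbers were not taken as pairs, MRTFA against control in E0771 gave 17, which adds Efna4 (adjusted p = 0.028), with 6405 of 13189 genes called in all. The block changed no call of guidance genes for MRTFB against control in E0771.

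Over all genes, B16F10 MRTFA against control gave 209 calls (DESeq2 357, minimum of 50 107, block 855, 1 library left out 37 to 324). B16F10 MRTFB gave 17 (179, 5, 603 and 0 to 129 under the same settings), and MRTFB against MRTFA in B16F10 gave 148 (minimum of 50 71, block 359, left out 10 to 213). E0771 MRTFB gave 19 (DESeq2 51, no filter 3, block 33, left out 7 to 15), the MRTFB line difference 17 (DESeq2 41, pseudocount of 5 28, left out 2 to 47) and E0771 MRTFA 5064 (left out 3260 to 4621, lowest without MRTFA replicate 2). MRTFB against MRTFA in E0771 gave 4430, with 2571 without MRTFA replicate 2 and 2914 without MRTFA replicate 1. Upper-quartile scaling moved the share of higher calls by more than 10 points in 2 contrasts: the MRTFA line difference (1867 of 3138 calls higher, and 1669 of 3454 so scaled) and MRTFB against MRTFA in E0771 (1916 of 4430, and 2645 of 4931). For MRTFA against control in E0771 it turned 2677 higher and 2387 lower into 2451 higher and 3025 lower. Genes with few reads, such as Plxna4 and Epha10 in E0771, are limited by depth.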
